A study of Mus musculus with 2 samples.

Results

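The genes described here are 9 genes that dendritic cells switch on when they mature: Ccr7, Cd83, Cd86, Fscn1, Il4i1, Cacnb3, Aldh1a2, Tbc1d4 and Cd200. They were taken from a fixed list, which was chosen with earlier results of these data known. All 9 are present in both count matrices, and they are 9 of the 26124 genes listed there. Lineage-depleted (Lin-) bone marrow progenitors of C57BL/6 mice aged 8 to 10 weeks were grown with GM-CSF at 20 ng/ml, a growth factor that drives bone marrow cells towards dendritic cells, macrophages and granulocytes. On day 3 the cultures received either albumin alone (control library) or heme-albumin at 300 µM (heme library), so both libraries share GM-CSF and albumin, and only the heme library has heme. Cells of culture days 0, 3, 4, 5 and 7 carried hashtags, which are DNA-barcoded antibodies, and were pooled into 1 library per treatment, giving 10 cultures in 2 libraries. The exposure times in the series' text and hashtag day 5 do not match, and the hashtag days are used here. By the labels days 0 and 3 lie before or at the addition. The day 3 cultures did not match as an unexposed pair: Hmox1, the heme-degrading enzyme, was at 37.3 CPM (UMIs scaled to 1000000 UMIs of a culture) in the control and 161 CPM in the heme library on day 3 (ratio 4.31, 4.04 to 4.61). Of the 4 genes of a heme exposure check, 3 were at least 2-fold higher there, with Slc40a1 at a ratio of 2.46 and Spic at 2.36, and Gclm was at 0.973. Day 3 is therefore given as a reference by its label, and whether its heme library cells had met heme cannot be told from these data.

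Immature dendritic cells sample antigen in tissue, and maturation turns them into cells that leave the tissue through lymphatics and present antigen to T cells in lymph nodes. Ccr7 is the chemokine receptor that guides this migration, and Fscn1 encodes fascin, an actin-bundling protein of the long membrane extensions of mature dendritic cells. Cd86 is a ligand of the T cell receptors CD28 and CTLA-4, Cd83 is a surface marker of mature dendritic cells, and Cd200 is a ligand of the inhibitory receptor CD200R. Il4i1 is a secreted enzyme that oxidises aromatic amino acids, and Aldh1a2 makes retinoic acid from retinal. Cacnb3 is a regulatory beta subunit of voltage-gated calcium channels, and Tbc1d4 is a Rab GTPase-activating protein of vesicle traffic.

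The libraries held 1 sample per treatment, so no test between treatments was possible and no replicate error exists. Intervals are 95% intervals of the UMI or cell counts (exact Poisson for ratios, Clopper-Pearson for shares) and cover counting error only. Kept cells numbered 598 to 2715 per control culture and 1366 to 2481 per heme culture, with 6189203 to 34647365 UMIs (unique molecular identifiers, 1 per captured RNA molecule) in a culture. The median was 7912 to 15078 UMIs per cell. Of the singlet barcodes, 1.92% to 8.34% in the control cultures and 16.4% to 33.9% in the heme library cultures were over the limit of 5000 genes per cell, and results that this limit turns are given with and without it. The limit on ribosomal UMIs was passed by 59.9% of singlets on day 0 of the control library and 7.78% of those of the heme library, and by at most 4.50% on any later day, so the day 0 levels rest on unlike selections of cells. The libraries shared 112 barcodes, 33 of them among kept cells.

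The genes lie on 8 chromosomes of the mouse build GRCm38: Ccr7 at chr11:99144196-99155077 (minus strand), Cd83 at chr13:43784775-43803132 (plus), Cd86 at chr16:36603869-36666081 (minus), Fscn1 at chr5:142960343-142973185 (plus), Il4i1 at chr7:44816387-44840809 (plus), Cacnb3 at chr15:98630840-98644529 (plus), Aldh1a2 at chr9:71215789-71296243 (plus), Tbc1d4 at chr14:101442360-101609191 (minus) and Cd200 at chr16:45382135-45409053 (minus). All 9 are annotated as protein coding. The span of Il4i1 overlaps Nup62 on the same strand and Atf5 and Tbc1d17 on the other, so reads in shared exons of Il4i1 and Nup62 could not be told apart. The spans of the other members overlap no gene except processed pseudogenes within Aldh1a2 and Tbc1d4.

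Promoter windows of 300 bases (250 before to 50 after the annotated start, RefSeq, GRCm38.p6) matched 6 of the 9 members, with 7 windows in all because Cacnb3 has 2 starts. The windows of Il4i1, Fscn1 and Aldh1a2 are shown because these genes differed most between the libraries on day 7. Capitals mark matches to a searched motif, on either strand. The Il4i1 window lies at chr7:44836038-44836337 (plus), the Fscn1 window at chr5:142960105-142960404 (plus) and the Aldh1a2 window at chr9:71215539-71215838 (plus). The RefSeq start of Il4i1 lies inside the longer gene span given above, so its window is that of a downstream start.
Il4i1: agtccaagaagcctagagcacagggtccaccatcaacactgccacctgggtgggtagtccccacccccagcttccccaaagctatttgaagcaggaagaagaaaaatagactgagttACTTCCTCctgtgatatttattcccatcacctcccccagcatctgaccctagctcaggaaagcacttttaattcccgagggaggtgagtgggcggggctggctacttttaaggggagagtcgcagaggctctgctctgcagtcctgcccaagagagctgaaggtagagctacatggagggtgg
Fscn1: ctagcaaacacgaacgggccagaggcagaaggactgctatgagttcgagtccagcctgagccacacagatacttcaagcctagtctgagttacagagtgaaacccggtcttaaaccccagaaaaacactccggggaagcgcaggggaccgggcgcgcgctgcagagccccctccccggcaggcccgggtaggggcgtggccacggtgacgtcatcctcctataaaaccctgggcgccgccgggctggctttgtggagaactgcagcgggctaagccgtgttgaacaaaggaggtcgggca
Aldh1a2: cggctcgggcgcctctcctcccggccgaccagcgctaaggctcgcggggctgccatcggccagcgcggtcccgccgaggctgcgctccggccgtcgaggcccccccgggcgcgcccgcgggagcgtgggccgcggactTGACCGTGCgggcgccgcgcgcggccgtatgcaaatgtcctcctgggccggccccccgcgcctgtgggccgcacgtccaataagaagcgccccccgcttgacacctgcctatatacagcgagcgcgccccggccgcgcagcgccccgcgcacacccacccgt

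The capitals in Il4i1 mark the PU.1-type word GAGGAAGT, found on the minus strand from base -133 to -126 relative to the start site, and 3.2% of 32817 windows hold this word. In Aldh1a2 they mark the antioxidant response element core TGACNNNGC from base -112 to -104, a pattern in 12.4% of windows. Neither the NF-kB consensus (in 8.46% of windows) nor the AP-1 word TGANTCA (in 7.81%) occurred in any of the 7 windows of the members. The windows differed in base composition, with 78.0% G or C in Aldh1a2, 61.7% in Fscn1, 54.0% in Il4i1 and 45.0% in Cd200, beside a median of 52.7% over all windows. A match is a match of letters in this window and nothing was drawn from it about binding.

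Both genes of migration and cell shape were low before the addition. Ccr7 (ENSMUSG00000037944) was at 1.78, 4.79, 23.3, 83.2 and 165 CPM on days 0, 3, 4, 5 and 7 of the control library. In the heme library it was at 4.40, 7.24, 39.7, 98.4 and 31.4 CPM on the same days. Its level was thus higher at each later day in the control library, while in the heme library it peaked on day 5 and was lower on day 7. Fscn1 (ENSMUSG00000029581) was at 0.808, 4.39, 27.0, 69.6 and 88.7 CPM in the control library and at 1.90, 6.79, 47.1, 85.0 and 7.12 CPM in the heme library. From day 5 to day 7 Fscn1 went up 1.27-fold (1.20 to 1.35) in the control library and down to 0.0838 of its level (0.0718 to 0.0974) in the heme library, back to the day 3 level (day 7 to day 3 ratio 1.05, 0.861 to 1.28).

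The surface proteins that face T cells followed the same order. Cd83 (ENSMUSG00000015396) was at 1.13, 2.75, 10.5, 39.0 and 62.6 CPM in the control library and at 2.20, 5.75, 14.3, 30.3 and 9.24 CPM in the heme library. Cd86 (ENSMUSG00000022901) was at 2.75, 8.06, 18.8, 35.8 and 52.4 CPM against 3.41, 9.95, 12.4, 26.0 and 14.1 CPM. It had the smallest drop from day 5 to day 7 of the heme library, to 0.541 of its level (0.472 to 0.619). Cd200 (ENSMUSG00000022661) was at 0.969, 0.442, 2.53, 8.74 and 15.1 CPM against 1.67, 0.670, 3.90, 9.18 and 1.89 CPM. Its counts on days 0 and 3 were 6 and 13 UMIs in the control library and 22 and 22 in the heme library, so its early ratios are imprecise.

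Among the enzymes, Il4i1 (ENSMUSG00000074141) was at 5.49, 10.1, 45.8, 139 and 239 CPM in the control library and at 3.94, 14.9, 40.5, 66.2 and 10.4 CPM in the heme library. On day 7 of the heme library it was below its own day 3 level (ratio 0.693, 0.596 to 0.804), the only member with such a ratio. Aldh1a2 (ENSMUSG00000013584) was at 0.646, 1.73, 10.1, 38.6 and 58.0 CPM against 0.758, 2.65, 8.53, 22.4 and 4.68 CPM. For both enzymes the control library was the higher one from day 4 on, although the Aldh1a2 interval on day 4 included no difference (ratio 0.848, 0.708 to 1.02).

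Cacnb3 (ENSMUSG00000003352) was at 0.162, 1.26, 6.79, 19.4 and 42.3 CPM in the control library and at 1.44, 2.77, 9.11, 29.1 and 7.87 CPM in the heme library. Its day 0 value in the control library rests on 1 UMI and is below the floor of 0.485 CPM that 3 counts give there. Tbc1d4 (ENSMUSG00000033083) was the member that did not start low, with 15.7, 6.77, 11.6, 26.8 and 36.9 CPM against 25.8, 9.41, 11.9, 25.2 and 10.1 CPM. On day 0, 12.5% of control and 19.0% of heme library cells held a Tbc1d4 UMI, and on day 7 of the heme library its level did not differ from day 3 beyond counting error (ratio 1.07, 0.908 to 1.27).

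**Figure D1:**
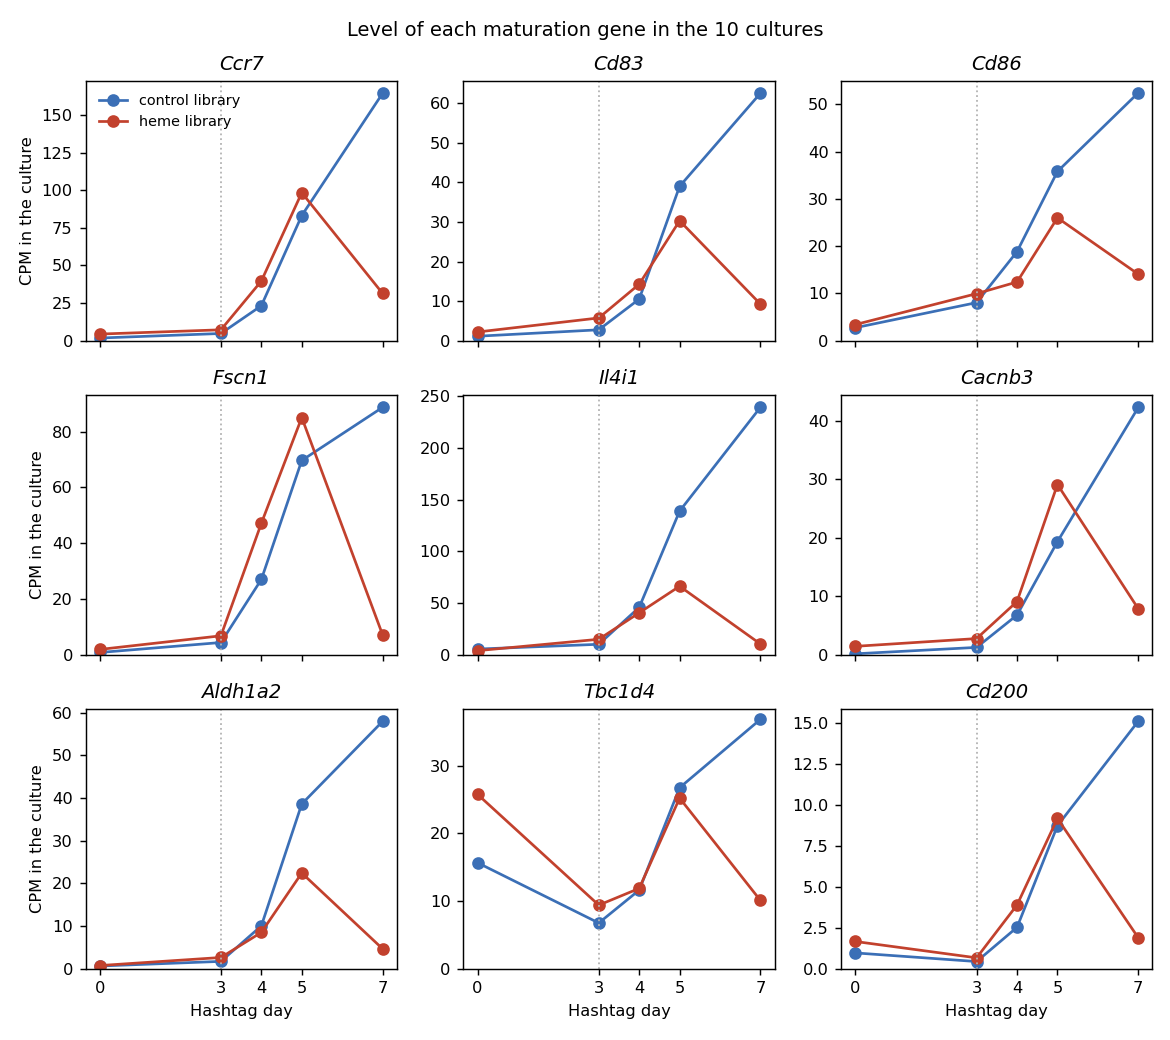
Level of each gene in CPM (y axis, starting at 0) on hashtag days 0, 3, 4, 5 and 7 (x axis) in the control (blue) and heme (red) library, 1 culture per point, with a dotted line at the addition on day 3. Lines of the control library climb to day 7, and those of the heme library peak on day 5 except Tbc1d4, whose day 0 value of 25.8 CPM is about as high as its day 5 value of 25.2 CPM.

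On day 7 all 9 members were at least 2-fold lower in the heme culture, whereas 7.67% of the 12867 genes with 20 or more UMIs were that much lower and 14.9% that much higher. The members were chosen with earlier results of these data known, so this contrast is a description. Il4i1 had the largest difference, 23.1-fold (heme to control ratio 0.0433, 0.0383 to 0.0488), followed by Fscn1 at 12.4-fold (0.0804, 0.0691 to 0.0930) and Aldh1a2 at 12.4-fold (0.0807, 0.0668 to 0.0966). The intervals of Fscn1 and Aldh1a2 overlap, so their order is not resolved. Cd200 was 7.99-fold lower, Cd83 6.77-fold, Cacnb3 5.38-fold and Ccr7 5.23-fold. Cd86 (3.73-fold, ratio 0.268, 0.239 to 0.300) and Tbc1d4 (3.65-fold, 0.274, 0.239 to 0.312) differed least, and their intervals overlap. The members' median log2 ratio was -2.76, beside a median of 0.28 over all genes tested. Under TMM or DESeq2 scaling, which shift every day 7 log2 ratio by -0.23 or -0.26, every member stayed at least 2-fold lower. Over all alternatives this held for each of the 89 values that could be formed. With day 0 subtracted Tbc1d4 had no ratio, because its heme library level was lower on day 7 (10.1 CPM) than on day 0 (25.8 CPM).

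Earlier days did not show this. On day 5 the members' median log2 ratio was -0.09, and only Il4i1 passed 2-fold (ratio 0.477, 0.447 to 0.508), beside 3.75% of genes lower and 9.27% higher by that much. Aldh1a2 (0.581), Cd86 (0.726) and Cd83 (0.777) were lower in the heme culture on day 5, with intervals below 1. Cacnb3 was higher (1.51, 1.33 to 1.70), and Ccr7 (1.18) and Fscn1 (1.22) were slightly higher in CPM, but DESeq2 scaling turned the log2 ratio of Ccr7 to -0.0037 and TMM scaling left it at 0.0050. Tbc1d4 (0.943, 0.838 to 1.06) and Cd200 (1.05, 0.859 to 1.28) did not differ beyond counting error.

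On day 4 Ccr7 (1.71, 1.54 to 1.89) and Fscn1 (1.75, 1.59 to 1.92) were higher in the heme culture, Cd86 was lower (0.659, 0.572 to 0.759), and none of the 9 passed 2-fold (background 2.98% lower and 9.64% higher). On day 3 the ratio was already above 1 for all 9 members, with log2 ratios from 0.30 (Cd86) to 1.14 (Cacnb3), and its interval included no difference for Cd200 (1.52, 0.730 to 3.27). Cd83 (2.09) and Cacnb3 (2.20) passed 2-fold higher there, beside 7.95% of genes higher and 0.539% lower. Heme and another difference between the libraries thus cannot be told apart in the day 4 values, and divided by the day 3 ratio the day 4 median turns to -0.62. On day 7 the same division gives a median of -3.60. Both quotients rest on a day 3 heme culture in which 3 of the 4 heme exposure genes were higher.

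**Figure D2:**
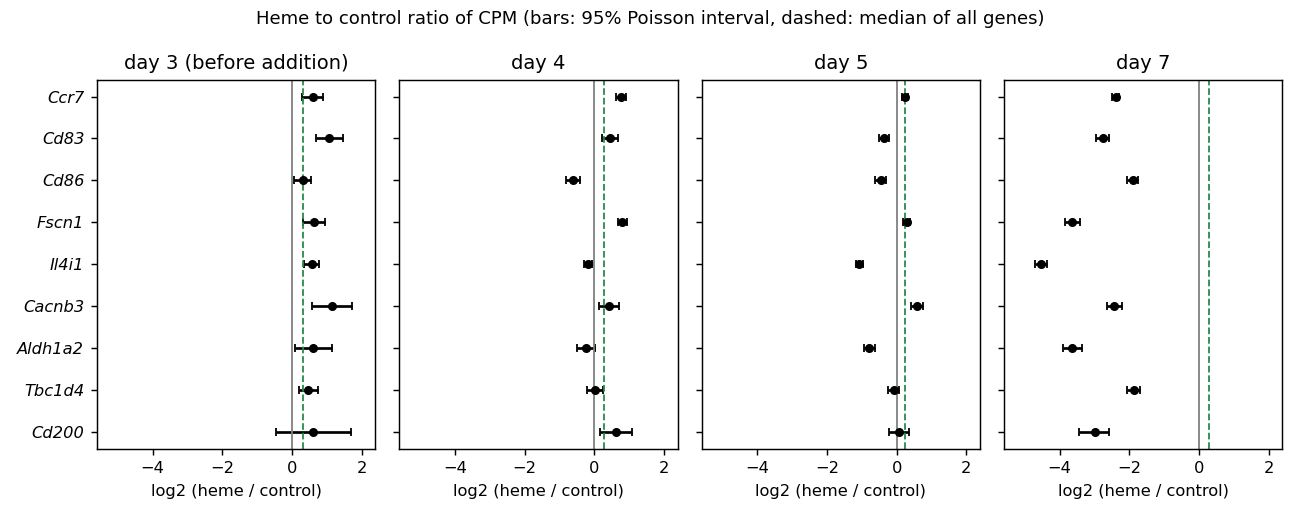
log2 of the heme to control ratio of CPM (x axis) for each gene (rows) on days 3, 4, 5 and 7, with 95% Poisson intervals as bars, 0 as a solid line and the median of all genes tested as a dashed green line. Points lie on or above the dashed line on day 3, on both sides of it on day 4 and mostly below it on day 5. On day 7 they lie between -1.87 and -4.53.

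The number of cells that held these genes together differed on day 7. In the control culture 20.4% of cells (554 of 2715, interval 18.9% to 22.0%) had a UMI of 4 or more of the 9 members, against 1.89% (38 of 2012, 1.34% to 2.58%) after heme, which is a heme minus control difference of -18.5 points (-20.2 to -16.9). With each cell thinned to 4000 UMIs the shares were 18.4% and 1.75%. The control share was 0.791% on day 3, 2.37% on day 4 and 7.60% on day 5, and the heme library share was 0.920%, 2.42% and 5.45%. The day 5 difference was -2.15 points (-3.66 to -0.63), ranging from -3.36 (thinned to 8000 UMIs) to -0.80 (all singlets) over the alternatives. On day 4 the difference was 0.05 points (-0.89 to 0.96), ranging from -0.62 to 0.73. With no upper limit of genes there were 198 control and 162 heme cells with 4 or more members on day 5, of which 18 and 58 were over the limit, and the difference was -1.57 points. On day 0 no cell reached 4 members, which at 3 counts allows a share of up to 0.502% of 598 control cells and 0.220% of 1366 heme library cells.

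Cells did not spread evenly over the number of members. In the control culture of day 7, 1344 cells had none of the 9, the number went down to 33 cells with exactly 4, and went up again to 149 cells with 7 and 131 with 8, and 65 cells had all 9. In the heme culture of day 7, 1393 cells had none, 4 cells had exactly 4 and none had 5, and 14 cells had 7 and 5 had all 9. On day 5 of the heme library 28 cells had all 9, and in the control culture of that day 30 did. Cells with 4 or more members on day 7 had a median of 11844 UMIs (control) and 15088 UMIs (heme), cells with none had 10232 and 11864, and cells with 1 to 3 had 14665 and 17034, so they were not the cells of greatest depth. Only 1 control cell with 4 or more members on day 7 and 2 heme cells on day 5 had a barcode found in both libraries.

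**Figure D3:**
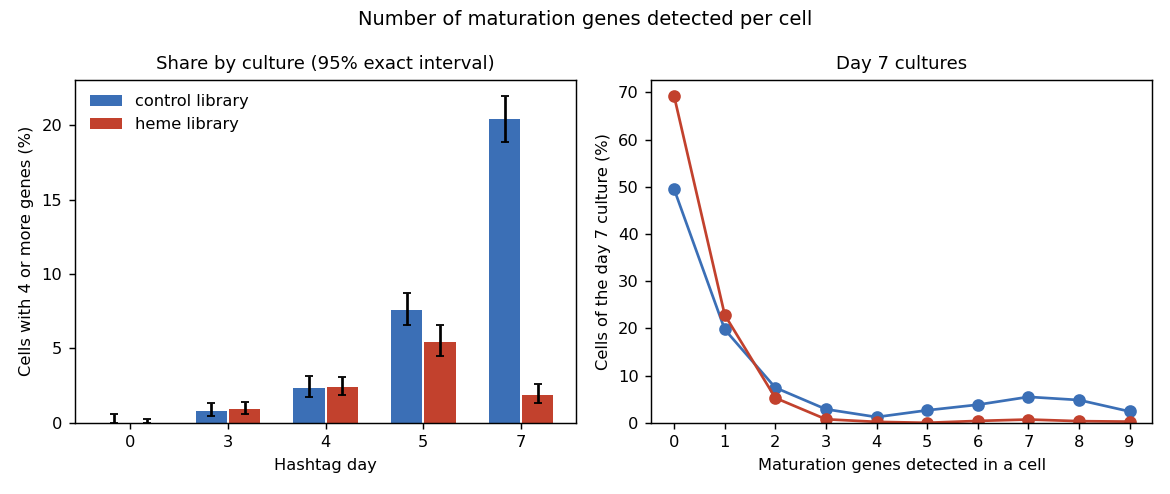
Left: share of kept cells with a UMI of 4 or more of the 9 genes (y axis, %) by hashtag day, bars for the control (blue) and heme (red) library with 95% exact intervals. Right: share of the cells of each day 7 culture (y axis, %) by the number of the 9 genes detected. The control share climbs to 20.4% on day 7, the heme share peaks at 5.45% on day 5, and on day 7 the control curve has a second rise at 5 to 9 genes that holds far fewer cells in the heme culture.

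Shares of cells with a UMI of a single member gave the same contrast with more background. Ccr7 was detected in 21.7% of control cells (20.1% to 23.3%) and 4.77% of heme cells (3.88% to 5.80%) on day 7, and Il4i1 in 32.6% and 6.26%. In cells rich in neutrophil granule transcripts (1% or more of UMIs from Camp, Ltf and Ngp), which should lack these genes, Ccr7 was found in 2.29% and Il4i1 in 4.20% of 262 cells of the heme culture (median 8708 UMIs). The other heme cells (median 14253 UMIs) had 5.14% and 6.57%, so a part of the single-gene shares of the heme culture is at the level of background. No granule-rich cell of day 7 had 4 or more members (0 of 33 control and 0 of 262 heme), and on day 5 there were 3 of 656 in the control and 0 of 487 in the heme library. Tbc1d4 and Cd86 stood out in the heme culture, with 10.7% and 11.6% of cells on day 7, most of them outside the cells with several members.

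Where the UMIs lay separated the members. In the control culture of day 7 the cells with 4 or more members held 21.2% of all UMIs but 98.3% of Ccr7, 98.7% of Fscn1, 97.6% of Cacnb3 and 97.7% of Cd200 UMIs. They held 73.9% of Cd86 and 85.0% of Tbc1d4 UMIs. In the heme culture of day 7 such cells had 2.13% of all UMIs and still 92.0% of Ccr7 and 88.9% of Aldh1a2 UMIs, but 36.7% of Cd86, 51.0% of Cd200 and 22.4% of Tbc1d4 UMIs. These cells are chosen by the members' own UMIs, so the shares are a description.

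In the cultures of days 5 and 7, every pair of members was found together more often than their separate shares give. Expected counts are the product of the shares of cells with each gene. Over the 36 pairs the median of observed over expected cells was 6.35 on day 5 and 3.1 on day 7 of the control library, and 8.72 and 7.34 in the heme library. The highest value this ratio can take is set by the commoner gene of a pair and differs between pairs and cultures, so no order of pairs or cultures is read from it.

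The share of one gene's cells that held another shows the overlap more directly, though it too depends on how common and how deeply counted the second gene is. In the control culture of day 7, 94.4% of the cells with a Cd200 UMI also had Ccr7 (234 cells, expected 53.7) and 85.9% had Fscn1 (213 cells, expected 41.8). In the heme culture of day 7 these shares were 43.6% (17 cells, expected 1.86) and 41.0% (16 cells, expected 1.32). Of the cells with Aldh1a2, 84.0% had Il4i1 and 77.1% had Ccr7 in the control culture, and 71.0% (22 cells) and 64.5% (20 cells) had them in the heme culture. Cd86 and Tbc1d4 met in 295 control cells (expected 134), which were 39.1% of the Cd86 and 61.1% of the Tbc1d4 cells, and in 46 heme cells (expected 24.9), which were 19.7% and 21.4%. On day 5 the same pair met in 39.1% of the Cd86 cells of the control and 49.7% of those of the heme library.

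**Figure D4:**
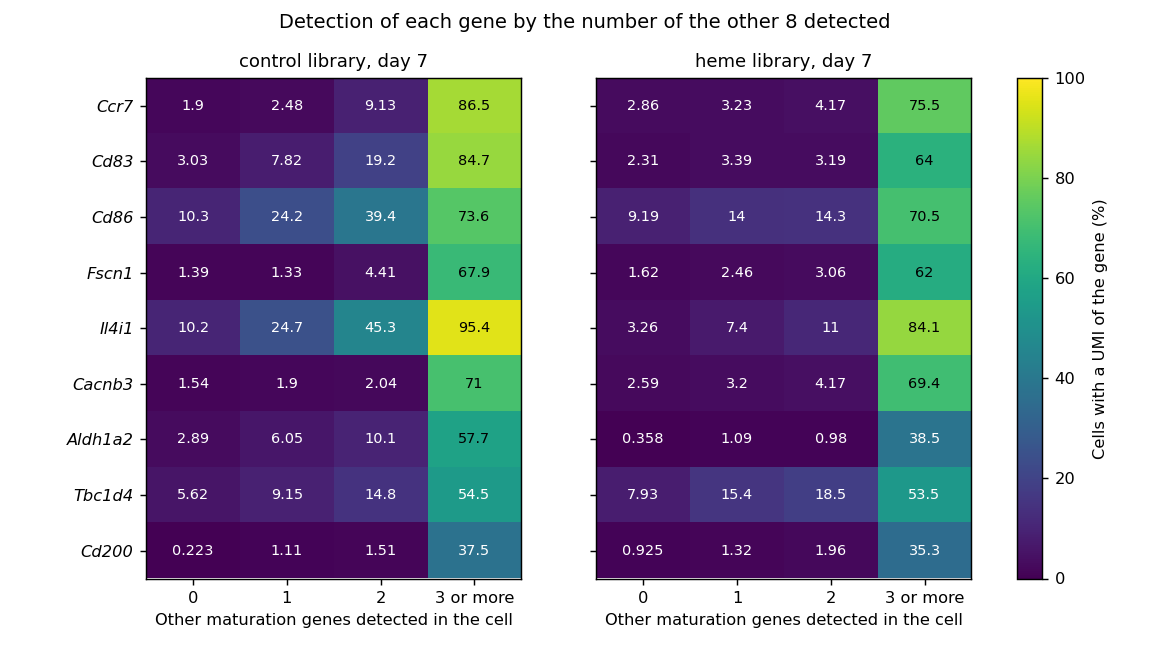
Share of cells with a UMI of each gene (rows, colour and printed value, %) by the number of the other 8 genes detected in the same cell (columns), in the control (left) and heme (right) cultures of day 7. Values climb sharply in the last column, for example Ccr7 from 9.13% with 2 others to 86.5% with 3 or more in the control culture and from 4.17% to 75.5% in the heme culture.

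Within the cells that held several members, the 9 genes parted. For each member, cells were chosen by a UMI of 3 or more of the other 8 genes, so that the member itself was not used. On day 7, 569 to 629 control and 43 to 52 heme cells met this, with median UMIs of 11851 to 12103 and 15088 to 16941. Il4i1 was at 933 CPM in such control cells and at 282 CPM in such heme cells (ratio 0.302, 0.260 to 0.349), although 95.4% and 84.1% of them had an Il4i1 UMI. Fscn1 (360 against 189 CPM, ratio 0.526, 0.443 to 0.620), Cd200 (60.0 against 31.9 CPM, 0.532, 0.344 to 0.788), Aldh1a2 (227 against 135 CPM, 0.595, 0.487 to 0.720) and Tbc1d4 (134 against 90.1 CPM, 0.672, 0.511 to 0.871) were lower too. These 5 genes were lower in the heme cells under each alternative tried, but by sizes that depend on the choice of cells.

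Cd83 (250 against 246 CPM, ratio 0.985, 0.847 to 1.14), Cd86 (174 against 208 CPM, 1.19, 0.996 to 1.42) and Cacnb3 (168 against 197 CPM, 1.18, 0.99 to 1.39) did not differ beyond counting error in these cells. Ccr7 was higher in the heme cells, at 973 against 671 CPM (1.45, 1.34 to 1.56). The directions of these 4 genes depend on the choice of cells. With no upper limit of genes per cell the log2 ratio was -0.75 for Ccr7, -0.84 for Cd83, -0.53 for Cd86 and -0.70 for Cacnb3. With cells chosen by 2 or more of the other members it was -0.62, -1.21, -0.76 and -0.93. The median log2 ratio of the 9 members within cells was -0.57 on day 7, beside -2.76 in the whole cultures, and Il4i1 alone passed 2-fold. With no upper limit of genes 5 members passed 2-fold lower, and with 2 or more of the other members 6 did, so the count of 1 rests on the choice of cells. Over all genes in cells with 4 or more members on day 7, 6.99% were at least 2-fold lower and 21.5% at least 2-fold higher in the heme library, with a median log2 ratio of 0.35.

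**Figure D5:**
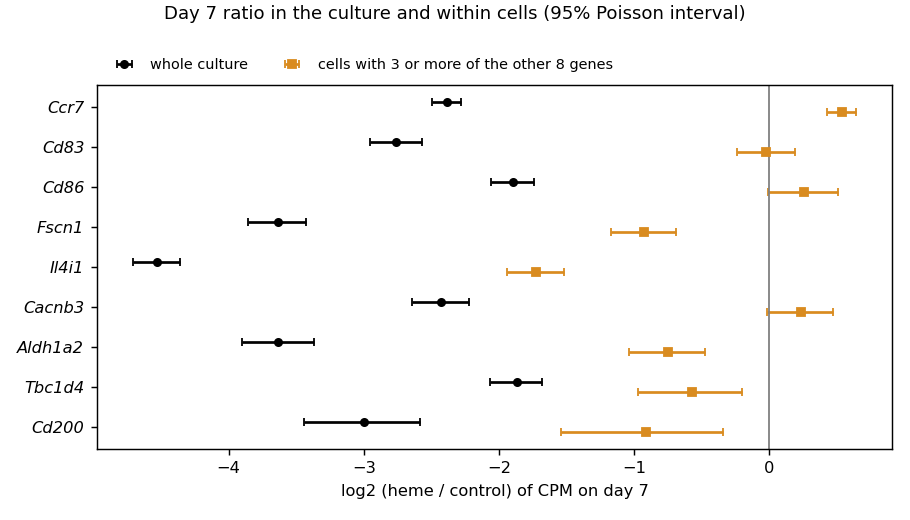
log2 of the heme to control ratio of CPM on day 7 (x axis) for each gene (rows), in the whole culture (black circles) and within cells with 3 or more of the other 8 genes (orange squares), bars being 95% Poisson intervals. Every black point lies at -1.87 or lower, while the orange points lie between -1.73 (Il4i1) and 0.54 (Ccr7).

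On day 5 the same choice gave 189 to 219 control and 107 to 118 heme cells. Cacnb3 passed 2-fold, at 256 CPM in heme and 125 CPM in control cells (ratio 2.05, 1.81 to 2.33). Its log2 ratio ran from 0.44 to 1.24 over the alternatives. In cells with 4 or more members, which are chosen differently, 11.2% of genes were that much higher and 4.49% lower. The median log2 ratio of all genes was 0.25 there. Cacnb3 was at a ratio of 1.88 in those cells, and none of the 9 members passed 2-fold. In the cells chosen by the other members Fscn1 (1.68), Ccr7 (1.66), Cd200 (1.44), Tbc1d4 (1.31) and Cd86 (1.24) were higher in the heme library. Cd83 (1.04, 0.936 to 1.16) did not differ beyond counting error, and Il4i1 (0.633, 0.591 to 0.677) and Aldh1a2 (0.800, 0.711 to 0.899) were lower. With no upper limit of genes the signs of Fscn1, Cd86 and Tbc1d4 turned (log2 -0.09, -0.24 and -0.13), Cd83 was lower (-0.68), and thinning to 4000 UMIs turned Cd200 (-0.03). Ccr7 and Cacnb3 were higher and Il4i1 and Aldh1a2 lower in each alternative on day 5. On day 4 Il4i1 was already lower in such cells (0.803, 0.734 to 0.877), while Fscn1 (1.78) and Ccr7 (1.77) were higher. Il4i1 thus had a lower ratio within cells at each later day, 0.803, 0.633 and 0.302.

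Cells with 4 or more members carried dendritic cell genes in both libraries. The summed level of 19 dendritic cell identity genes (antigen presentation genes such as Cd74 and H2-Aa, and regulators such as Irf4, Batf3 and Zbtb46) was 23678 CPM in control and 17544 CPM in heme cells with 4 or more members on day 7, against 10715 and 2674 CPM in cells with none. Cells with 1 to 3 members summed to 23232 CPM in the control culture, near the level with 4 or more. In the heme culture they summed to 4528 CPM. Cd74 alone gave 13221 CPM of the control and 10995 CPM of the heme sum in cells with 4 or more members. All 19 genes were present in the 554 control cells, and Cd209a, Clec9a, Xcr1 and Klrd1 were at 0 in the 38 heme cells. In the control cells Cd209a had 17, Clec9a 5 and Xcr1 2 UMIs, so a 0 among so few heme cells says little for these genes, while Klrd1 had 109 UMIs. Of the 16 identity genes with 20 or more UMIs in these cells, 5 were at least 2-fold lower and 1 higher after heme (median log2 ratio -0.68). Over all genes in these cells 6.99% were that much lower and 21.5% higher, with a median of 0.35. Mgl2, a lectin of type 2 dendritic cells, was at 196 CPM in control and 15.7 CPM in heme cells (ratio 0.0799, 0.0364 to 0.152). Irf8 was at 547 and 160 CPM (0.293, 0.235 to 0.360). Dpp4 (0.234), Itgax (0.259), H2-Ab1 (0.597), H2-Aa (0.605) and H2-Eb1 (0.636) were lower too. Batf3 (1.55, 1.31 to 1.83), Irf4 (1.52, 1.21 to 1.88) and Ciita (2.06, 1.69 to 2.50) were higher in the heme cells.

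The summed markers of macrophages and of neutrophils were lower in them than in cells with none of the members, but not absent. The 13 macrophage markers summed to 336 CPM in control and 920 CPM in heme cells with 4 or more members, against 1476 and 1967 CPM in cells with none, with 0 of 13 and 2 of 13 (C1qa and C1qc) at 0. The leading one was Gpnmb, at 104 and 534 CPM. In control cells with none of the members Gpnmb was at 333 CPM. In heme cells with none, the highest macrophage marker was Marco at 472 CPM. Gpnmb alone was thus higher in the heme cells with 4 or more members than in those with none, against the direction of the sum. The 13 neutrophil markers summed to 1298 and 2026 CPM against 7800 and 39305 CPM in cells with none, with Ly6g at 0 in the heme cells. Their part in the differences within cells was not tested. Hmox1 was at 1037 CPM in heme cells with 4 or more members and at 9.80 CPM in the control ones, and in heme cells with none of the members it was at 4940 CPM. Slc40a1, the iron exporter, had 80 UMIs (139 CPM) in the heme cells with 4 or more members and 4 UMIs (0.544 CPM) in such control cells.

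Other genes of dendritic cell maturation went with the members in the whole cultures. Of 22 such genes, 16 were at least 2-fold lower and none 2-fold higher in the heme culture of day 7 (median log2 ratio -1.42). The shares over all genes were 7.67% lower and 14.9% higher. This list too was chosen with earlier results of these data known, so the contrast is a description. On day 5, 3 of the 22 were 2-fold lower, beside 3.75% of all genes. Tnfrsf4, the receptor OX40, had the largest difference (15.2 against 0.965 CPM, log2 -3.97), then Nudt17 (43.4 against 2.82 CPM, -3.94). Cd274, the inhibitory ligand PD-L1, was higher (86.2 against 114 CPM, 0.40), and Birc3, an inhibitor of apoptosis, was level (52.4 against 52.5 CPM, 0.00). TMM scaling shifts these values by -0.23, which takes Birc3 below 0 and leaves Cd274 above it.

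Over all genes in cells with 4 or more members on day 7, 6.99% were at least 2-fold lower in the heme cells. Another 21.5% were at least 2-fold higher, and the median log2 ratio was 0.35. Of the 22 maturation genes, 6 were at least 2-fold lower and 3 at least 2-fold higher there. Their median log2 ratio was 0.26, below that of all genes. The lower ones were Stat4, the signal transducer of IL-12 (124 against 10.4 CPM, ratio 0.0845), Tnfrsf4 (69.1 against 12.2 CPM, 0.176), Pdcd1lg2, the ligand PD-L2 (142 against 52.2 CPM, 0.367), Nudt17 (0.385), Serpinb6b (0.497) and Il12b, which had 78 UMIs in the control and 0 in the heme cells. Set at the limit of 3 counts in the heme cells Il12b was at least 2.03-fold lower, which is how it was counted, whereas its 95% interval allows a ratio of up to 0.619. The higher ones were Apol7c (29.1 against 115 CPM, 3.94), Etv3 (255 against 586 CPM, 2.30) and Cd80, which like Cd86 is a ligand of CD28 (88.6 against 193 CPM, 2.18). These genes were named after their values were seen.

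The list of NF-kB genes holds subunits of this transcription factor, which takes part in dendritic cell maturation, and also its inhibitors such as Nfkbia and Tnfaip3. Of 12, 3 were at least 2-fold lower and none higher in the heme day 7 culture (median -0.38), beside 7.67% and 14.9% of genes. Relb, which is also in the list of 22, (61.1 against 23.3 CPM, log2 -1.39) and Rel (114 against 52.0 CPM, -1.13) were lowest, and Nfkbiz (10.6 against 17.4 CPM, 0.71) and Rela (35.4 against 45.8 CPM, 0.37) highest. Within cells with 4 or more members none of the 12 passed 2-fold on day 7, beside 6.99% of genes lower and 21.5% higher there. Relb was at 198 CPM in control and 125 CPM in heme cells (ratio 0.633, 0.493 to 0.803), and Rel at 327 and 624 CPM (1.91, 1.70 to 2.13).

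Of 20 partners and relatives of the members (among them ligands of CCR7, receptors of CD86 and CD200, other retinal dehydrogenases and other calcium channel beta subunits), 13 had 20 or more UMIs on day 7. Over all genes tested on day 7, 7.67% were at least 2-fold lower and 14.9% at least 2-fold higher. Of the 13, 1 gene was 2-fold lower, Btla, an inhibitory receptor (3.49 against 1.00 CPM, log2 -1.80). The 2 that were 2-fold higher were Cacnb2 (0.346 against 1.97 CPM, 2.51) and Rdh11, a retinol dehydrogenase (11.0 against 24.0 CPM, 1.12). These counts are near the shares over all genes. Tbc1d1, the closest relative of Tbc1d4, was next lowest (26.3 against 14.8 CPM, -0.83). The ligands Ccl19 and Ccl21a had no UMI in cells with 4 or more members of either library on day 7. All 3 dendritic cell chemokines, which attract T cells, were at least 2-fold lower in the heme culture of day 7. Ccl17 (5034 against 102 CPM, -5.62) and Ccl22 (638 against 82.2 CPM, -2.96) had the largest differences. Ccl5 was lower too, with 25491 UMIs in the control and 3996 UMIs after heme. Within cells with 4 or more members Ccl17 was lower (ratio 0.484, 0.456 to 0.513) and Ccl22 differed little (1.17, 1.11 to 1.23). Ccl5 was higher within these cells (1.94, 1.88 to 2.01), against its direction in the whole culture.

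Across the 10 cultures the members' levels were alike, which is given as a description because the cultures share libraries, hashtag pools and days. Pearson's r of log2(CPM + 1) between members ran from 0.41 (Cd86 and Tbc1d4) to 0.99 (Ccr7 and Cacnb3). The mean of the members' log2(CPM + 1) was 1.56, 2.18, 3.86, 5.32 and 6.01 in the control library and 2.04, 2.68, 4.06, 5.15 and 3.27 in the heme library. Among 7843 other genes with 20 CPM or more in at least 1 culture, those most like this mean were Pdcd1lg2 (r 0.99), Nudt17 (0.98), Nr4a3 (0.98), Il2ra (0.98) and Tnfrsf9 (0.97). Tnfrsf9, the receptor 4-1BB, was at 56.2 and 246 CPM on days 5 and 7 of the control library and at 63.6 and 22.2 CPM in the heme library, and Il2ra, the alpha chain of the IL-2 receptor, at 21.8 and 35.8 against 31.9 and 9.50 CPM.

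The genes outside the list whose UMIs lay most in control cells with 4 or more members on day 7, among those with 200 or more UMIs, were Hbb-y (100% of 202 UMIs), Pou4f1 (98.2% of 452), Serpinb9b (97.5% of 201), Slc4a8 (97.5% of 240), Nudt17 (97.1% of 1504), Apol7c (96.8% of 221), Tnfrsf4 (96.8% of 525), Adcy6 (96.6% of 350), Ccl5 (96.6% of 25491) and Clu (95.8% of 449). The Hbb-y UMIs came from 10 cells, 99 of them from 1 cell. In the heme culture Ccl5 and Apol7c kept 93.6% of 3996 and 89.2% of 74 UMIs in cells with 4 or more members, while Clu had 4.84% of 62 and Serpinb9b none of 69 there. Pou4f1, a transcription factor of sensory neurons, had UMIs in 209 control cells and in 8 heme cells, at 60.4 and 10.4 CPM within cells with 4 or more members.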

How the data were processed

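Lin- bone marrow cells were profiled by 10x 3′ single-cell RNA sequencing, with hashtag antibodies marking the culture day. Per the submitters' processing notes, Cell Ranger 4.0.0, GRCm38.p6, Seurat 3.2.3 and Scanpy 1.6.0 were used. The authors deposited UMI counts per gene and barcode, not normalized, with a hashtag call for each barcode. Barcodes called with several hashtags (1259 control, 1996 heme) or none (652 and 1218) were left out, which removes doublets of different days only, and no doublet caller was run. Of 12050 and 14164 singlets, 9684 and 9941 with 500 to 5000 genes, under 15% mitochondrial and under 30% ribosomal protein UMIs were kept. The stated wording of these limits leaves room for other readings.

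Counts were summed per culture and divided by the culture's total (CPM). With 1 library per treatment no test across libraries was run. Ratios have exact Poisson intervals, shares Clopper-Pearson intervals, and both cover counting error only. Genes needed 20 UMIs in both cultures together, and 2-fold in either direction is the limit for a count of genes. A count of 0 was given 3 counts as its limit. Scripts were tested on simulated data. Python 3.11.15, NumPy 2.4.6, SciPy 1.17.1, pandas 2.3.3, and for other scalings R 4.3.3 with edgeR 4.0.16 (TMM) and DESeq2 1.42.0 (size factors only) were used. All 9 members are named, and from each other list the 2 genes with the largest rise and fall on day 7, the 5 genes most like the members' mean, and the 10 genes with the highest share of UMIs in control cells with 4 or more members. Genes named within those cells were chosen after their values were seen. The members and all lists were chosen with earlier results of these data known.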

Additional observations from a re-analysis of the deposited data

Results flagged for a closer look

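For 3 members the heme to control ratio pointed in opposite directions on days 5 and 7, with both intervals away from no difference. Ccr7 had a log2 ratio of 0.24 on day 5 and -2.39 on day 7. Fscn1 had 0.29 and -3.64, and Cacnb3 had 0.59 and -2.43. The difference between the days was not tested, since each day is 1 culture per library. For Ccr7 the day 5 sign is lost under DESeq2 scaling (-0.0037). Less the median of all genes, the day 5 values were -0.010 for Ccr7, 0.035 for Fscn1 and 0.34 for Cacnb3. Day 3 log2 ratios were already positive, at 0.60 for Ccr7, 0.63 for Fscn1 and 1.14 for Cacnb3. Each is larger than the same gene's day 5 value, so relative to day 3 the positive day 5 signs are lost for all 3. That comparison rests on a day 3 heme culture that may have met heme.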

How the results depend on the processing

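On day 7 the members' median log2 ratio of -2.76 was -2.52 with the ribosomal limit counting the wider set of ribosomal genes (chosen after seeing the data). It was -2.99 with TMM, -3.02 with DESeq2 size factors and -3.60 divided by day 3. With day 0 subtracted it was -3.50, without Tbc1d4, which had no ratio there. The day 5 median of -0.09 was -0.29 in all singlets, -0.29 with no upper limit of genes, -0.32 with TMM, -0.33 with DESeq2 and -0.56 divided by day 3. The day 4 median of 0.42 was 0.70 in all singlets, 0.68 with no upper limit, 0.18 with DESeq2 and -0.62 divided by day 3. The day 7 difference in cells with 4 or more members (-18.5 points) was -15.2 with the wider ribosomal set, -20.6 for 3 or more members and -16.7 thinned to 4000 UMIs. Within cells, the day 7 median of -0.57 was -1.09 in all singlets, -1.11 with no upper limit, -1.22 with 2 or more other members and -0.28 thinned, and the day 5 median of 0.39 was -0.10, -0.13 and, thinned, 0.017. Single members reversed within cells on day 5 in all singlets and with no upper limit (Cd86 -0.16 and -0.24, Fscn1 -0.092 and -0.090, Tbc1d4 -0.10 and -0.13) and thinned (Tbc1d4 -0.090, Cd200 -0.027), and on day 7 for Ccr7 (-0.48, -0.75 and, with 2 or more other members, -0.62). Under the same 3 alternatives Cd86 (0.26) and Cacnb3 (0.23), whose intervals included 0, also turned negative on day 7 (-0.48, -0.53 and -0.76, and -0.71, -0.70 and -0.93), and Cd83 (-0.02) went to -0.70, -0.84 and -1.21. The number of members 2-fold lower within cells on day 7 went from 1 to 5, 5 and 6. On day 5 Cd83 (0.06) was -0.64 in all singlets and -0.68 with no upper limit. The cause was not tested. No paired analysis was possible because each treatment is 1 library. With 38 heme cells of 4 or more members on day 7, values within them are imprecise, and cells lost cannot be told apart from less RNA per cell in the culture totals.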

Other observations

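Markers of other cells differed between the day 7 cultures, in which 7.67% of all genes were at least 2-fold lower and 14.9% higher after heme. Of 13 neutrophil markers 11 were at least 2-fold higher in the heme culture (median log2 2.04), led by the granule genes Ngp (4.30) and Ltf (3.83), and Mmp9 was at -0.37. Of 13 macrophage markers 5 were 2-fold lower, among them the complement genes C1qa (-5.66) and C1qb (-5.54), and 5 were higher, among them Spic (9.49), a transcription factor of iron-recycling macrophages, and Marco (7.16). Of 19 dendritic cell identity genes 17 were 2-fold lower (median -2.09), with Klrd1 (-7.67, from 262 against 1 UMI) and Dpp4 (-4.61) lowest. All 4 genes of the heme exposure check were higher, with Slc40a1 at 7.08.

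Of 8 basophil and mast cell markers 5 were 2-fold higher, of 8 erythroid markers 2 were higher and 1 lower (Car2, -1.69), of 6 T, NK and innate lymphoid markers 2 were higher and 1 lower, of 5 plasmacytoid dendritic cell markers 2 were lower (Bst2, -1.78), and neither of the 2 B cell markers with enough UMIs passed 2-fold. In cells with 4 or more members on day 7, T, NK and innate lymphoid markers summed to 222 CPM in the control and 344 CPM in the heme library, led by Il7r (204 and 221 CPM), with Cd3e, Klrb1c and Ncr1 at 0 in both. Plasmacytoid markers summed to 501 and 174 CPM, led by Bst2, with Siglech, Ly6d and Klk1 at 0 in both. Erythroid markers summed to 466 and 263 CPM, led by Car2 (381 and 190 CPM), B cell markers to 2.86 and 10.4 CPM, and basophil and mast cell markers to 26.5 and 19.1 CPM. In cells with none of the members the summed T, NK and innate lymphoid markers were lower, at 54.1 and 63.1 CPM. The plasmacytoid sums were lower there too, at 237 and 115 CPM, and so were the erythroid sums, at 267 and 157 CPM. In the control library these contrasts came from the leading genes. Without Il7r the lymphoid sums were 18.2 and 123 CPM with 4 or more members and 19.5 and 34.9 CPM with none. Without Bst2 the plasmacytoid sums were 26.7 and 55.7 CPM against 37.6 and 47.7 CPM. Without Car2 the erythroid sums with 4 or more members were 85.2 and 73.0 CPM. Hbb-bs alone was at 133 and 56.7 CPM in cells with none. B cell markers were at 13.0 and 22.6 CPM there, and basophil and mast cell markers at 34.8 and 67.0 CPM. The part of these markers in the results was not tested.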
